A study of Mus musculus with 15 samples.

Results

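The 10 genes described here, Gata4, Gata6, Sox17, Sox7, Foxa2, Hnf4a, Pdgfra, Dab2, Lama1 and Col4a1, mark the primitive endoderm of the mouse embryo and were taken by symbol. All 10 were found, among 51627 genes in the table of embryonic stem cells (ESCs) and among 53564 genes in the table of 2-cell embryos. The libraries came from J1 mouse ESCs of genotype Zscan4 OE (overexpression, 2 libraries) and wild-type J1 ESCs (2 libraries, the controls), and from 2-cell embryos with Zscan4 RNAi (6 libraries) and wild-type 2-cell embryos (5 libraries, the controls). The ESCs were grown without feeder cells and are labelled as passage PN+8 in both groups; the labels used here give neither the vector, the inducer and the duration of the overexpression nor the RNAi reagent, the mouse strain and the number of embryos per library. Since no label states that replicates were separate cultures or embryo pools, every p-value here refers to the variation among these libraries alone, and that variation may be technical.

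The primitive endoderm is the layer of the late blastocyst that faces the cavity and later forms the parietal and visceral endoderm of the yolk sac. Its cells arise when inner cell mass cells raise Gata6 under fibroblast growth factor (FGF) signalling through the ERK kinase cascade, while epiblast cells keep Nanog and secrete Fgf4. The zinc finger factors Gata6 and Gata4 and the HMG-box factors Sox17 and Sox7 then act in sequence, Pdgfra receives platelet-derived growth factor, Dab2 sorts endocytic cargo and helps to position the layer, and the cells secrete the laminin and type IV collagen of the basement membrane. The Zscan4 genes encode zinc finger proteins that are made at the 2-cell stage and, in ESC cultures, by few cells at a time. Levels below are normalised reads, that is, reads per gene divided by the size factor of the library; the 2 tables were normalised separately and are compared only within a table.

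The Zscan4 genes checked the labels. Their sum over 9 genes was 19727 ± 393 normalised reads in the OE libraries and 182 ± 41.8 in the ESC controls (SD, n = 2 each), a 108.4-fold difference with a two-sided exact permutation p of 0.333, the smallest that 2 against 2 libraries allow. In the RNAi embryos the sum was 229.5 ± 142 normalised reads (SD, n = 6), against 734 ± 272 in the control embryos (SD, n = 5), 3.20-fold lower with an exact permutation p of 0.00649. The groups overlapped, with 13.9 to 383 normalised reads in RNAi and 345 to 1064 in controls. Depth was 21820093 to 26555027 reads per ESC library and 695524 to 1432566 reads per embryo library. The OE libraries differed from each other more than the ESC controls did, with a median SD per gene of 0.41 in OE and 0.09 in controls on the log2 scale. Embryo control libraries are named here by column number in the deposited table, which differs from the number in the sample titles. Among these controls, library 5 had the lowest summed level of 8 ESC markers, at 554 normalised reads against 805 to 1306 in the other control libraries.

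In ESCs the 10 genes moved in both directions. Each gene was tested in a limma fit on log2(normalised reads + 1) across 20888 genes, and a gene was called where its Benjamini-Hochberg adjusted p was under 0.05. Foxa2 and Col4a1 rose and Lama1 and Hnf4a fell in OE cells, while Gata4, Gata6, Sox17, Sox7, Pdgfra and Dab2 did not pass the threshold. The 4 calls among 10 members (2 higher and 2 lower) stand beside 23.2% of all tested genes called, 11.7% higher and 11.4% lower. The members' median log2 fold change was 0.81, against -0.02 for all tested genes. For every member the 2 groups did not overlap, 6 with OE above the controls and 4 with OE below, but this was also so for 68.8% of all genes, 34.2% with OE above and 34.6% with OE below. Each ESC call named below had an adjusted p above 0.05 when control 1 or control 2 was left out, a setting in which no gene of the whole table was called (limma; 3617 and 3646 genes had an unadjusted p under 0.05), and likewise when the spread was taken from the OE libraries alone (0 genes called, 4935 with an unadjusted p under 0.05). In bulk samples such as these, fewer cells of a type and less RNA per cell cannot be told apart.

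**Figure D1:**
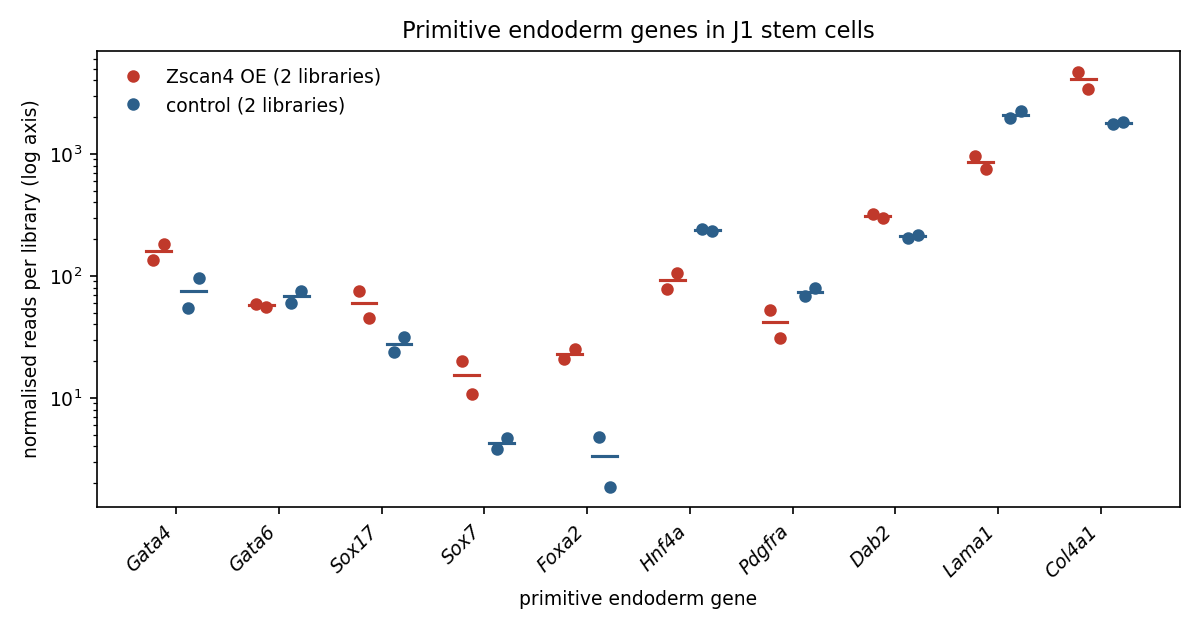
Normalised reads of the 10 primitive endoderm genes in each ESC library on a log axis; points are libraries, Zscan4 OE at the left and control at the right of each gene, and bars are group means. Foxa2 lay at 21.0 and 25.0 in OE against 4.76 and 1.87 in controls, whereas Lama1 lay at 964 and 749 in OE against 1971 and 2231 in controls.

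The early factor Gata6, on chromosome 18, had 59.3 and 56.0 normalised reads in the OE libraries and 60.0 and 75.8 in the controls. Both OE values lay just below the lower control, and the log2 fold change of -0.22 ± 0.30 (SE) had an adjusted p of 0.619 in limma. Gata4, on chromosome 14, had 136 and 182 normalised reads in OE against 54.3 and 96.4 in controls. Both OE libraries were above both controls, yet the controls themselves lay far apart, and the log2 fold change was 1.11 ± 0.40 (limma adjusted p = 0.111). Per kilobase of exon, Gata4 stood 3.82 and 5.43 times above Gata6 in the OE libraries and 1.51 and 2.12 times above it in the controls. The length here counts all annotated exon bases of a gene, 3.904 kb for Gata4 and 6.508 kb for Gata6. On that length Gata4 stood above Gata6 in all 4 libraries, and the ratio was higher in both OE libraries. In control 1 the order rests on the length, since Gata4 had fewer normalised reads there (54.3 against 60.0).

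The HMG-box factors Sox17 and Sox7, which belong to the same SoxF subfamily, were low in control ESCs. Sox17 had 75.7 and 45.3 normalised reads in OE and 23.8 and 31.8 in controls (log2 fold change 1.06 ± 0.42, limma adjusted p = 0.135). Sox7 had 20.1 and 10.7 in OE and 3.81 and 4.68 in controls (1.59 ± 0.50, limma adjusted p = 0.0868). In both genes OE 1 was the highest library and neither difference passed the threshold. Of the exon bases of Sox17, 16.8% are shared with the annotated gene Gm37587 on the other strand, and the strand setting of the counting is not known, so its level is uncertain. Per kilobase, Sox17 exceeded Sox7 by 2.61 and 2.92 times in OE and by 4.32 and 4.70 times in controls.

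Foxa2, a forkhead factor of visceral as well as definitive endoderm, rose in OE cells. It had 21.0 and 25.0 normalised reads in OE libraries, against 4.76 and 1.87 in controls. The OE libraries lay close together and far above controls that held only a few reads each; the mean was 6.93-fold higher and the log2 fold change 2.56 ± 0.53 (limma adjusted p = 0.038). This was the weakest of the 4 calls, since it also ended when either OE library was left out (adjusted p = 0.0902 without OE 1 and 0.111 without OE 2), without the filter on low values (0.0505), in DESeq2 (0.0511) and in voom with quality weights (0.0893). Of 10 other tested markers of definitive endoderm and mesendoderm, only 2 had a log2 fold change above 0, and their median was -0.72. Otx2 was called higher (7.50-fold, limma adjusted p = 0.0137) and Cxcr4 lower (9.75-fold, limma adjusted p = 0.0182, but 0.0691 and not called in voom).

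Hnf4a, the nuclear receptor that drives visceral endoderm and later liver programmes, fell. It had 78.4 and 105 normalised reads in OE, against 240.01 and 233 in controls. Both OE values were well below either control; the mean was 2.58-fold lower and the log2 fold change -1.37 ± 0.27 (limma adjusted p = 0.0332; 0.0562 in voom with quality weights). Foxa2 and Hnf4a lie on the same chromosome, at chr2:148042877-148046969 on the minus strand and chr2:163506808-163572910 on the plus strand (mm10), and moved in opposite directions. The median log2 fold change of the genes of that chromosome stood near 0, as for every chromosome that holds a member (-0.05 to 0.02). RefSeq promoter windows (GRCm38.p6, 250 bases before to 50 after an annotated start) were at hand for 5 members, Foxa2, Hnf4a, Pdgfra, Dab2 and Col4a1, with 9 windows in all. They were searched on both strands for 4 motifs and compared with all 32851 windows of the same length. GATA letters (AGATAA or TGATAA or AGATAG or TGATAG) occur in 29.8% of all windows and SOX letters (ACAAT) in 31.0%. The CCAAT box (CCAAT) occurs in 37.4% and the GC box (GGGCGG) in 35.7%. The windows of the factors that moved oppositely are shown with the matches in capitals; no match overlapped another. Positions count from the start site, and upstream bases are negative.
Foxa2, first window, chr2:148046920-148047219, minus strand: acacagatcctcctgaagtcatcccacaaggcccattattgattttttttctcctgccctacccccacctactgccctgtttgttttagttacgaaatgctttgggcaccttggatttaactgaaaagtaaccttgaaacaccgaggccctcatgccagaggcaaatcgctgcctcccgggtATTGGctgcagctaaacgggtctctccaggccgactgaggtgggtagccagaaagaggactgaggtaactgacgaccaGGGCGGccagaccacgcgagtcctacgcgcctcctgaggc
Hnf4a, first window, chr2:163506607-163506906, plus strand: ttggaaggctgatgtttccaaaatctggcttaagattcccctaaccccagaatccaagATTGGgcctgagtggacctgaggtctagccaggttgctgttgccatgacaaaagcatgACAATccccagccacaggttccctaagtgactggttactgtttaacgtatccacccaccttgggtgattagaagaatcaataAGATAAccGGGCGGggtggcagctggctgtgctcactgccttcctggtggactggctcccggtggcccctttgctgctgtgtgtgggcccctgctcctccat
The first Foxa2 window held a CCAAT box at position -68 on the opposite strand and a GC box at position 11, and no GATA or SOX letters. The first Hnf4a window held all 4 kinds, with GATA letters at -52, SOX letters at -134, a CCAAT box at -192 on the opposite strand and a GC box at -44. The matches differed between windows of the same gene: the third Foxa2 window held GATA letters at -183, and the second Hnf4a window held a CCAAT box at -216 on the opposite strand and none of the other kinds. These matches describe the letters only and were not compared with the direction of change.

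Pdgfra, an early marker of primitive endoderm precursors, had 52.9 and 31.0 normalised reads in OE and 68.6 and 79.6 in controls. Both OE libraries were below both controls, but OE 1 and OE 2 lay further from each other than OE 1 did from the lower control, and the log2 fold change of -0.85 ± 0.39 did not pass (limma adjusted p = 0.179). Of its exon bases, 6.50% are shared with other annotated genes. Dab2, the endocytic adaptor, had 323 and 300.4 normalised reads in OE against 205 and 216 in controls. Its groups were tight and apart, with a log2 fold change of 0.56 ± 0.20 (limma adjusted p = 0.112).

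The matrix genes were the most abundant members and moved against each other. Lama1, the alpha chain of laminin-111 (chr17:67697259-67822647, mm10), had 964 and 749 normalised reads in OE against 1971 and 2231 in controls. Both OE libraries lay far below the controls; the mean was 2.45-fold lower, with a log2 fold change of -1.30 ± 0.20 (SE; limma adjusted p = 0.0238). Col4a1, the alpha 1 chain of type IV collagen, had 4730.4 and 3416 normalised reads in OE against 1756 and 1810.5 in controls. It was higher in both OE libraries, 2.28-fold in the mean, with a log2 fold change of 1.17 ± 0.22 (limma adjusted p = 0.0305).

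Col4a2, the partner chain of Col4a1, lies head to head with it and rose as well. It had 2756 and 2575 normalised reads in OE against 826 and 923 in controls, a 3.05-fold higher mean (log2 fold change 1.61 ± 0.16, limma adjusted p = 0.0138). Per kilobase, Col4a1 stood 1.52 and 1.18 times above Col4a2 in OE and 1.89 and 1.74 times above it in controls, so the ratio was lower in both OE libraries. The RefSeq windows of this divergent pair, shown because both genes rose, share 78 bases, since the start sites lie at 11312826 and 11312805 on chromosome 8 and the first exons overlap by 22 bases. Capitals mark the same motifs as above.
Col4a1, chr8:11312777-11313076, minus strand: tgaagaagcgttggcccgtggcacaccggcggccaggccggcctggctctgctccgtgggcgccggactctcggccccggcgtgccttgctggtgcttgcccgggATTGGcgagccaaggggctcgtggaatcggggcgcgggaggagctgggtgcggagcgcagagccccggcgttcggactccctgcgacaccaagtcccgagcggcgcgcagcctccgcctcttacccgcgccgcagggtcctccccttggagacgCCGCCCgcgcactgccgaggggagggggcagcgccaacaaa
Col4a2, chr8:11312555-11312854, plus strand: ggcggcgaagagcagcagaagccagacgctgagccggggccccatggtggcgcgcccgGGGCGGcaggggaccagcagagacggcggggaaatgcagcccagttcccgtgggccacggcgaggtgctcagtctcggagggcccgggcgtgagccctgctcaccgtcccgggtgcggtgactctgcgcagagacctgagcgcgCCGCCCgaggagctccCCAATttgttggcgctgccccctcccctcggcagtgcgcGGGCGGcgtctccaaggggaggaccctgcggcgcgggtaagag
The Col4a1 window held a CCAAT box at -145 and a GC box at 10, both on the opposite strand. The Col4a2 window held a CCAAT box at -32 and GC boxes at -192, at 8 and, on the opposite strand, at -48. The GC box at 10 of Col4a1 and the GC box at 8 of Col4a2 are the same bases, within the shared stretch. Neither window held GATA or SOX letters, and 74.0% of the Col4a1 window and 73.7% of the Col4a2 window were G or C.

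Lama1 also fell relative to 3 other laminin chains. Per kilobase, the ratio of Lama1 to Lama5, the other major alpha chain of the early embryo, was 0.0676 and 0.0691 in OE and 0.364 and 0.384 in controls. The ratio to Lamb1 was 0.239 and 0.251 in OE against 0.413 and 0.468 in controls, and the ratio to Lamc1 was 0.0415 and 0.0645 in OE against 0.153 and 0.159 in controls. All 3 ratios were lower in both OE libraries than in either control. Each has Lama1 as its numerator, so the 3 ratios partly restate the fall of Lama1. Lama5 itself rose 2.23-fold, with 14750.1 ± 2839.9 normalised reads in OE and 6601 ± 331 in controls (SD, n = 2 each; limma adjusted p = 0.029, and 0.0558 after quantile normalisation). Lamb1 had 3589 ± 753 in OE and 4887 ± 9.55 in controls (limma adjusted p = 0.173), and the groups of Lamc1 overlapped (14878 ± 7004 and 11492 ± 731, limma adjusted p = 0.604).

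**Figure D2:**
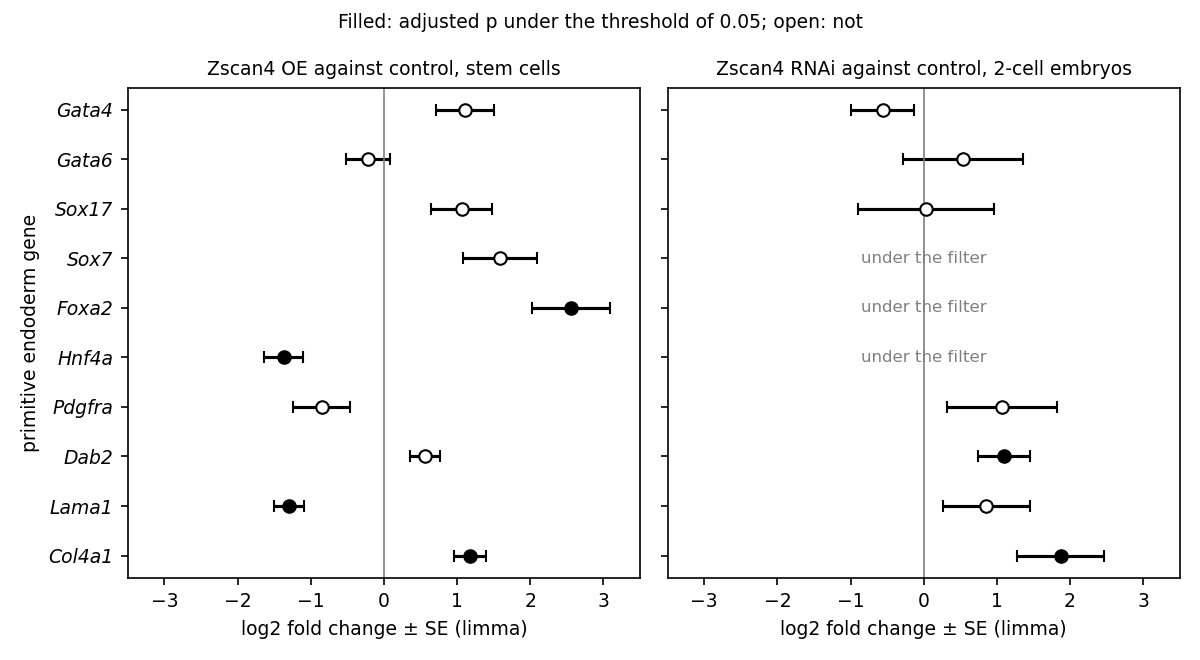
Log2 fold changes with their SE (limma) of the 10 genes, Zscan4 OE over control in ESCs at the left and Zscan4 RNAi over control in 2-cell embryos at the right; filled points passed the adjusted threshold of 0.05. In ESCs, Foxa2 (2.56) and Col4a1 (1.17) lie to the right of 0 and Lama1 (-1.30) and Hnf4a (-1.37) to the left; in embryos, Dab2 (1.10) and Col4a1 (1.87) are filled and 3 genes were under the filter.

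On the per-length scale, the members kept a wide range of levels. In OE cells the order of mean levels was Col4a1 (546 normalised reads per kilobase), Lama1 (88.4), Dab2 (42.4), Gata4 (40.8), Hnf4a (19.0), Sox17 (12.7), Foxa2 (9.71), Gata6 (8.86), Sox7 (4.67) and Pdgfra (4.18). In controls it was Col4a1 (239), Lama1 (217), Hnf4a (49.0), Dab2 (28.7), Gata4 (19.3), Gata6 (10.4), Pdgfra (7.39), Sox17 (5.83), Foxa2 (1.40) and Sox7 (1.29). In controls all neighbours in this order had ranges apart except Foxa2 and Sox7. In OE cells the ranges of Dab2 and Gata4 overlapped, as did those of Sox17 with Foxa2, of Foxa2 with Gata6 and of Sox7 with Pdgfra. Nanog, the epiblast factor that opposes Gata6, stood at 6455 normalised reads per kilobase in OE and 4635 in controls, far above every factor of the primitive endoderm (for its change, limma adjusted p = 0.101).

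Other genes of the primitive endoderm and its derivatives followed no common direction in ESCs. Of 30 listed genes 28 were tested, and 5 were called higher, 2 lower and 21 not, with a median log2 fold change of 0.21. Of all tested genes, 11.7% were called higher and 11.4% lower. Snai1, the epithelial-mesenchymal transition factor of parietal endoderm, had 297 and 409 normalised reads in OE against 43.8 and 36.5 in controls, 8.79-fold higher (log2 fold change 3.09 ± 0.30, limma adjusted p = 0.0133). Rbp4, a retinol carrier secreted by visceral endoderm, fell to 18.2 and 50.1 in OE against 183 and 214 in controls (limma adjusted p = 0.0373, not called after quantile normalisation or by voom). The other genes called higher beside Col4a2 were Spink1, Lrp2 and Cited1, named after their values were seen. Lrp2 encodes megalin, an endocytic receptor that Dab2 binds, and its mean was 5.65-fold higher. The Spink1 call ended without OE 1 or OE 2. The Cited1 call ended without OE 2, without the filter on low values and after quantile normalisation.

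**Figure D3:**
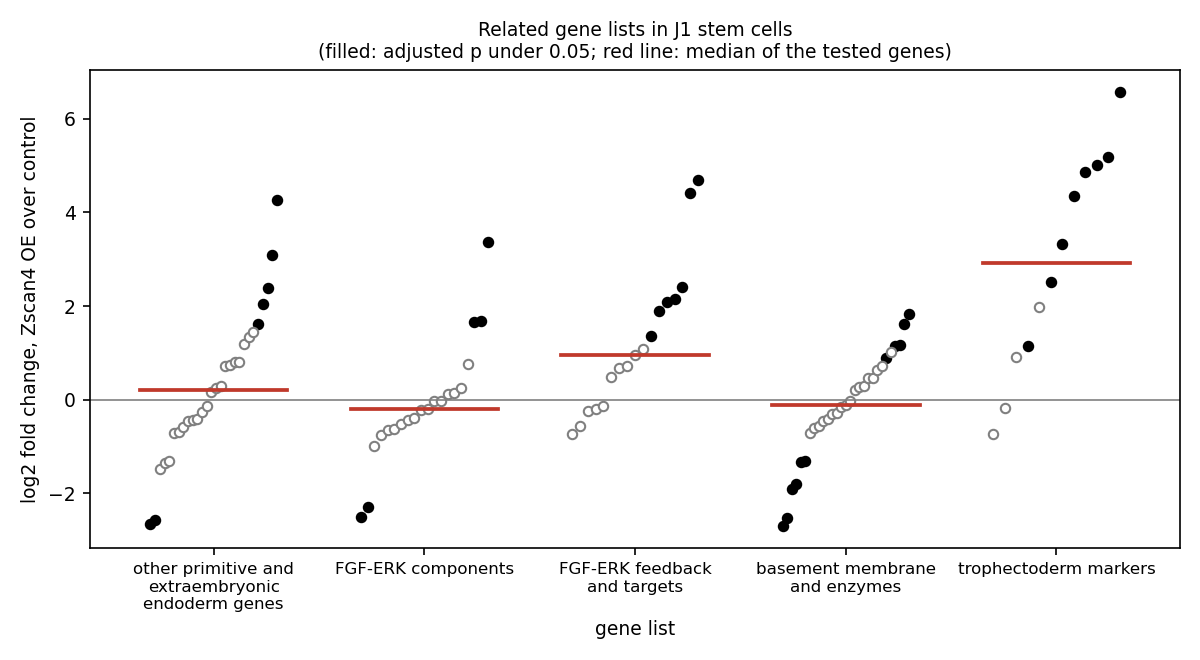
Log2 fold changes, Zscan4 OE over control in ESCs, of the tested genes of 5 gene lists; each point is a gene, filled where the limma adjusted p was under 0.05, and red lines are list medians. The FGF to ERK feedback and target genes had a median of 0.96 with 7 called higher, and the trophectoderm markers a median of 2.92 with 8 called higher, while the other 3 medians lay between -0.20 and 0.21.

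Components of the FGF pathway, which directs primitive endoderm fate, were called in both directions, at a share near that of all genes. Of 20 tested components, 3 were called higher (Fgf5, Fgfr2 and Map2k2) and 2 lower (Fgfr4 and Fgfr3), with a median log2 fold change of -0.20. Fgfr2, a receptor of primitive endoderm, had 1234 and 765 normalised reads in OE against 313 and 300.5 in controls (log2 fold change 1.66 ± 0.29, limma adjusted p = 0.0279). Fgfr4 had 36.5 and 50.1 in OE against 280.01 and 218 in controls, 5.76-fold lower (limma adjusted p = 0.0176, but 0.0785 and not called in voom), and Fgfr3 was 4.68-fold lower (limma adjusted p = 0.0385, not called without OE 2, after quantile normalisation or by voom). The ligand Fgf5 had only 2 control reads against 37 in OE, a ratio of 20.2 with a 95% counting interval of 5.22 to 173. With 2 control reads, Fgf5 could pass the filter on low values only with the help of its OE libraries. Fgf4, the ligand of the epiblast, had 3796 ± 259 normalised reads in OE and 5470 ± 162 in controls (SD, n = 2 each; limma adjusted p = 0.0755).

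Among 17 feedback and target genes of FGF and ERK signalling, 7 were called higher and 0 lower by limma, with 0 lower by edgeR and DESeq2 and 0 lower at an unadjusted p under 0.05, and the median log2 fold change was 0.96. Myc had 1289 and 1664 normalised reads in OE against 62.9 and 49.6 in controls, a 26.3-fold higher mean (limma adjusted p = 0.0112). Spry4, a feedback inhibitor of receptor signalling, had 1604 and 1444 in OE against 336 and 353 in controls, 4.42-fold higher (limma adjusted p = 0.0117). The others called higher, named after their values were seen, were Dusp5, Etv1, Etv5, Dusp6 and Spry2, with means 2.60-fold (Spry2) to 23.1-fold (Etv1) higher. Of the exon bases of Dusp5, 22.1% are shared with another annotated gene, so its level is uncertain. Of 9 epiblast factors that oppose the primitive endoderm, only Prdm14 was called, with 310.5 ± 27.9 normalised reads in OE and 608 ± 21.4 in controls (SD, n = 2 each; limma adjusted p = 0.0337, and 0.0543 in voom).

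The basement membrane list, which holds Lama1 and Col4a1, had 29 tested genes with 5 called higher and 6 lower and a median log2 fold change of -0.12. The higher ones were Col4a2, Lama5, Col4a1, Lama4 and Hspg2, all of them structural chains or core proteins. The Hspg2 call also ended without the filter on low values (limma adjusted p = 0.0552) and after quantile normalisation, and the Lama4 call without OE 1 or OE 2 (from 0.0658 in limma) and in voom (0.0646). The lower ones held the collagen-modifying enzymes P4ha1, P4ha2 and Plod2 beside the laminin chains Lamc3, Lama1 and Lamb3. The Lamc3 and Lamb3 calls ended in voom with quality weights (voom adjusted p = 0.122 and 0.0538). P4ha1, a catalytic subunit of prolyl 4-hydroxylase, had 781.3 and 780.9 normalised reads in OE against 4471 and 4507 in controls, 5.75-fold lower (limma adjusted p = 0.0112). P4ha2 was 3.73-fold lower (limma adjusted p = 0.015).

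Markers of other cell types moved in the same libraries. Of 12 trophectoderm markers 8 were called higher and 0 lower by limma (0 lower also by edgeR, by DESeq2 and at an unadjusted p under 0.05), and their summed level was 33131 to 49990.2 normalised reads in OE against 3459 to 3527 in controls; Gata3 was 39.3-fold and Krt8 29.9-fold higher (limma adjusted p = 0.0112 for each). Of 9 tested 2-cell embryo markers 5 were called higher and 0 lower, again by all 3 tools, with sums of 1345 to 1533 in OE against 135 to 138 in controls. These 5 include Zscan4d, a copy of the overexpressed family (748 and 645 in OE, 10.5 and 10.3 in controls), so the count and the sums partly restate the overexpression. They also include the oocyte genes Bmp15 and Zp3, so the list is not made of 2-cell genes alone. The others called higher were Usp17lc and Tcstv3, which like Zp3 lie outside the rule for named genes. The Tcstv3 call ended without OE 1 or OE 2. The summed levels of fibroblast markers overlapped (505 to 607 in OE, 524 to 601 in controls; 2 of 7 tested called higher and 2 lower), and cumulus and granulosa markers summed to 401 to 533 in OE and 498 to 542 in controls. Of 8 ESC markers, 2 were called higher by limma (Zfp42 and Dppa4) and 0 lower (0 lower also by edgeR and DESeq2, and 1 lower at an unadjusted p under 0.05), with sums of 101126 to 137847 in OE and 85978 to 86113 in controls. The part of these cells or programmes in the levels of the 10 genes was not tested.

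In 2-cell embryos the same genes were close to the detection limit. At this depth 1 read was worth 0.687 to 1.39 normalised reads, and only Dab2 and Gata4 had a read in every library. The limma fit covered the 16417 genes that reached 1 normalised read in 5 or more libraries, and 7 of the 10 members passed that filter; Sox7, Foxa2 and Hnf4a did not. Col4a1 and Dab2 were called higher in RNAi embryos and 0 members were called lower (0 also in edgeR, in DESeq2 and at an unadjusted p under 0.05), beside 18.2% of all tested genes called, 6.13% higher and 12% lower. None of the 10 members had groups that did not overlap, against 7.33% of all tested genes (3.05% with RNAi above and 4.28% with RNAi below).

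**Figure D4:**
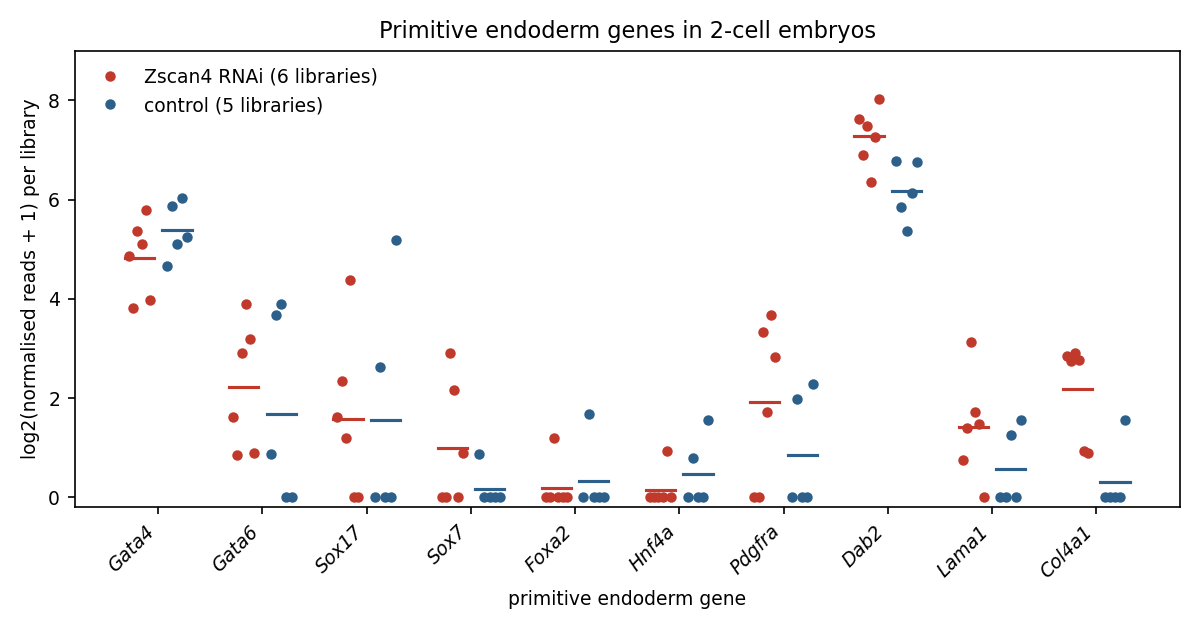
Log2(normalised reads + 1) of the 10 genes in each 2-cell embryo library; points are libraries, Zscan4 RNAi at the left and control at the right of each gene, and bars are group means on that scale. Dab2 and Gata4 lie above all others, and the groups overlap for every gene, including Dab2 (81.3 to 259 normalised reads in RNAi, 40.4 to 109 in controls).

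Dab2 was the most abundant member in these embryos and rose in the RNAi group. The RNAi libraries ranged from 81.3 to 259 normalised reads with a median of 165, and the controls had 109, 56.8, 40.4, 69.1 and 107. Most RNAi libraries lay above every control, and RNAi 4 lay within the control range. RNAi 4 had the lowest Zscan4 sum of the RNAi libraries (13.9 normalised reads). RNAi 5 had the highest (383), with Dab2 at 152. Whether Dab2 followed the Zscan4 sum across libraries was not tested. The means were 164 ± 61.9 in RNAi (SD, n = 6) and 76.4 ± 30.5 in controls (SD, n = 5), 2.15-fold higher (log2 fold change 1.10 ± 0.35, limma adjusted p = 0.0355). The call ended when any of RNAi 1, 3 and 6 or of controls 2, 3 and 4 was left out (adjusted p = 0.0651 to 0.105), without the low-value filter (0.0578) and with the spread of the RNAi libraries alone (0.0683); without control 5 it was 0.0213. Dab2 has RefSeq windows at 2 start sites, and the first, upstream one is shown because it held GATA letters, marked in capitals, at -179 and, on the opposite strand, at 15.
Dab2, first window, chr15:6299539-6299838, plus strand: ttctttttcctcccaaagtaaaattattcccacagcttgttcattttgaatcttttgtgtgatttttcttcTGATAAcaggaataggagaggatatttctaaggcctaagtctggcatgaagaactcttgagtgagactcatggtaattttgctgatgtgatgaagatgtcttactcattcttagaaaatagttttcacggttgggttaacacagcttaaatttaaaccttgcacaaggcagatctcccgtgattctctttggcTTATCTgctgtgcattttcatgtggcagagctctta
The second Dab2 window held none of the 4 motifs, and neither did the Pdgfra window. Of the other member windows, only the third of Foxa2 and the first of Hnf4a held GATA letters. GATA letters occur in 29.8% of all windows, and only 37.7% of the bases of the first Dab2 window were G or C. A link of these letters to the level of Dab2 was not tested.

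Col4a1 was called higher on few reads. The RNAi libraries 1 to 6 had 6.18, 5.74, 6.52, 5.80, 0.902 and 0.868 normalised reads, and the controls were at 0 except control 5 with 1.96. RNAi 1 to 4 were thus above every control and RNAi 5 and 6 were not, and the gene passed the filter through those 4 libraries and control 5. The log2 fold change was 1.87 ± 0.59 (limma adjusted p = 0.0331), and the 28 reads in RNAi against 2 in controls gave a ratio of 11 with a 95% counting interval of 2.77 to 95. The call ended without any of RNAi 1 to 4 or controls 1 to 4 (adjusted p = 0.0506 to 0.0802), without the filter (0.0869), in edgeR (0.0648) and with the spread of the RNAi libraries alone (0.0692); without control 5 it was 0.0165. Its partner Col4a2 had 25 reads in RNAi, most of them in RNAi 6, and 7 in controls (log2 fold change 0.51 ± 0.73, limma adjusted p = 0.67).

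Among the factors, Gata4 was the one detected throughout. It ranged from 13.1 to 54.1 normalised reads in RNAi with a median of 30.9, against 24.3, 57.5, 33.4, 64.4 and 37.1 in controls. The groups overlapped, with means of 30.7 ± 15.6 in RNAi (SD, n = 6) and 43.4 ± 16.9 in controls (SD, n = 5) and a log2 fold change of -0.56 ± 0.43 (limma adjusted p = 0.383). Gata6 ranged from 0.82 to 13.9 in RNAi with a median of 4.29, against 0.839, 11.8, 13.9, 0 and 0 in controls (0.54 ± 0.82, limma adjusted p = 0.688). Sox17 was carried by single libraries: RNAi 4 had 19.7 and control 5 had 35.2 normalised reads, while the others had 0 to 4.10 in RNAi and 0 to 5.16 in controls (0.03 ± 0.93, limma adjusted p = 0.986).

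The untested factors had almost no reads. Sox7 had 9 reads over the RNAi libraries, of which 5 were in RNAi 3, and 1 over the controls, a ratio of 7.05 with a 95% counting interval of 0.977 to 309. Foxa2 had 1 read in RNAi and 3 in controls, and Hnf4a also 1 and 3, which is at or under the floor of 3 reads, so no fold is given. Pdgfra had 29 reads in RNAi and 8 in controls (log2 fold change 1.07 ± 0.76, limma adjusted p = 0.338). Lama1 had 13 reads in RNAi and 3 in controls, a ratio of 3.39 with an interval of 0.933 to 18.6 (0.85 ± 0.59, limma adjusted p = 0.328). Of these 5 genes, Sox7, Foxa2 and Hnf4a were not tested, and Pdgfra and Lama1 did not pass the threshold. Per kilobase, Dab2 averaged 22.3 normalised reads in RNAi and 10.4 in controls, Gata4 7.86 in RNAi and 11.1 in controls, and every other member under 2 in either group.

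Related genes in the embryos were also mixed. Of 30 other primitive and extraembryonic endoderm genes only 15 passed the filter; 1 was called higher and 3 lower, with a median log2 fold change of 0.18 against -0.03 for all tested genes. Srgn, the proteoglycan serglycin, had 169 ± 56.1 normalised reads in RNAi (SD, n = 6) and 42.7 ± 18.4 in controls (SD, n = 5), 3.96-fold higher (limma adjusted p = 0.00259). Snai1 had 62.8 ± 40.0 in RNAi (SD, n = 6) and 159.8 ± 44.1 in controls (SD, n = 5), 2.55-fold lower (limma adjusted p = 0.0129). Apoe was 2.94-fold lower (limma adjusted p = 0.0177, 0.0512 without control 3 and 0.0717 in edgeR), and Cited1, outside the rule for named genes, was the other gene called lower.

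In the FGF pathway, 2 of 20 tested components were called higher and 6 lower (4 lower in edgeR), with a median log2 fold change of -0.18. Of all tested genes, 6.13% were called higher and 12% lower. The kinase Map2k1 had 509 ± 129 normalised reads in RNAi (SD, n = 6) and 176 ± 28.9 in controls (SD, n = 5; limma adjusted p = 0.0024). Mapk3 was also called higher, at 399 ± 164 in RNAi (SD, n = 6) and 202 ± 84.8 in controls (SD, n = 5; limma adjusted p = 0.0344), a call that ended in 8 of 11 fits that left out 1 library. Fgf4 had 2.12 ± 3.04 in RNAi (SD, n = 6) and 32.3 ± 17.4 in controls (SD, n = 5; limma adjusted p = 0.00408), and Fgfr3 1.91 ± 2.68 in RNAi (SD, n = 6) and 18.8 ± 11.1 in controls (SD, n = 5; limma adjusted p = 0.00975). Of 16 tested feedback and target genes 0 were called higher (0 also in edgeR, in DESeq2 and at an unadjusted p under 0.05) and 2 lower, Dusp4 (9.09-fold, limma adjusted p = 0.00627) and Spry2 (8.00-fold, limma adjusted p = 0.00664); the median was -0.22. Of 9 epiblast factors 2 were called lower, Fgf4 and Klf4; the Klf4 call, at a limma adjusted p of 0.0499, ended in 8 of 11 fits that left out 1 library.

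Of 20 tested basement membrane genes, Col4a1 alone was called higher and P4hb alone lower, at 62.3 ± 49.1 normalised reads in RNAi (SD, n = 6) and 238 ± 92.8 in controls (SD, n = 5; limma adjusted p = 0.00802). None of 6 tested definitive endoderm markers was called in limma, 0 had an unadjusted p under 0.05, and edgeR and DESeq2 also called 0. The list of 2-cell embryo markers also holds oocyte genes, among them Bmp15 and Gdf9. It summed to 4300.01 to 9854 normalised reads in RNAi and 3368 to 6047 in controls. Of its 10 genes 2 were called higher, both oocyte genes (Bmp15 and Gdf9), and 3 lower (Obox6, Tcstv3 and Zscan4d). One of the genes called lower is Zscan4d, a copy of the family that the RNAi targets, and its call ended in 6 of 11 fits that left out 1 library (limma adjusted p = 0.0516 to 0.109). The Gdf9 call ended in 6 of 11 such fits as well (limma adjusted p = 0.0576 to 0.0928). Fibroblast markers summed to 6.56 to 43.0 in RNAi and 2.34 to 26.8 in controls, and cumulus and granulosa markers to 6.94 to 27.9 in RNAi and 24.3 to 78.2 in controls, with Amhr2 called lower. Trophectoderm markers summed to 65.6 to 130.01 in RNAi and 122 to 179.9 in controls, with Tfap2c called lower (limma adjusted p = 0.00487). Of 8 ESC markers, Dppa5a and Dppa4 were called lower, and the sums of 254 to 462 in RNAi and 554 to 1306 in controls did not overlap. The part of such cells in the levels of Dab2 and Col4a1 was not tested.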

How the data were processed

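RNA levels were taken from 4 J1 ESC libraries and 11 libraries of 2-cell embryos. The submitters' processing notes name Trimmomatic, HISAT2, featureCounts and mm10; their versions, the strand setting, the annotation and the normalisation are not named in the labels used here, and the labels give genomic DNA and a DNA library kit although the titles say RNA-Seq. The unit of both deposited tables is a normalised signal: from the values, the authors divided read counts by 1 size factor per library, since 100% of values were whole multiples of a fixed step, within 0.01 read. These whole reads gave the count tests listed among the alternatives.

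The main test was limma (3.58.1, R 4.3.3) with trend on log2(value + 1), for genes that reached 1 in 2 or more ESC libraries or in 5 or more embryo libraries, with Benjamini-Hochberg adjustment over all tested genes and a threshold of 0.05. Fold changes from limma are on that log2 scale, which understates changes of low genes; "-fold" is the ratio of group means. On recovered reads, edgeR (4.0.16) called 4510 genes in ESCs and 2169 in embryos, against 4843 and 2983 with limma; DESeq2 (1.42.0) was another alternative. The scripts were tested on simulated data. The main ESC fit used no replicate block, since no pairing is stated, and the block was run as an alternative. Deviations of ESC replicates with the same number had r = -0.01 over 20888 genes. With 2 libraries per group this cannot show that they were unpaired.

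The members and lists were chosen with earlier results of these data known. From each list, up to 2 genes called higher and 2 called lower with the smallest adjusted p were named per comparison, with head-to-head neighbours of members; others are said to lie outside that rule. Gene positions and exon lengths are from GENCODE vM21 on GRCm38 (mm10). An exon length counts every annotated exon base of a gene once, over all its transcripts. Promoter windows are RefSeq's (GRCm38.p6) and were found for 5 of 10 members. The reads carry no molecular identifiers, so intervals and the floor of 3 reads per group cover counting error only. Wnt3, Col1a1 and Fap were not analysed here in ESCs, and 1 gene called lower among the related endoderm genes is not reported here.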

Additional observations from a re-analysis of the deposited data

Results flagged for a closer look

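In the 2-cell embryos, 5 of 20 groups of values of the 10 genes (RNAi and control libraries taken separately) held a single library far from the others of its group; for continuous values chance alone flags about 1 group in 20, a rate against which these 5 cannot be read. Each of the 5 is a library with 1 to 3 reads while all others of its group were at 0, which sets it apart by construction. They were RNAi 3 for Foxa2, with 1.30 normalised reads from 1 read, and RNAi 5 for Hnf4a, with 0.902 from 1 read. Among the controls they were control 2 for Foxa2, with 2.21 from 3 reads, control 1 for Sox7, with 0.839 from 1 read, and control 5 for Col4a1, with 1.96 from 2 reads. Control 5 also held the highest Sox17 value of all embryo libraries, 35.2 normalised reads.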

How the results depend on the processing

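In ESCs, 4843 genes were called; leaving out 1 library gave 0 to 10855, the low end without control 1 or 2, where the spread rests on the OE pair, and the spread of the OE libraries alone, chosen after seeing the data, gave 0. Members called higher (2) were 1 without the filter, 1 in DESeq2, 1 in voom with quality weights, 0 with the OE spread alone and 0 to 3 with 1 library left out. Members called lower (2) were 1 in voom, 0 with the OE spread alone and 0 to 2 with 1 library left out. With the replicate block, 6024 genes were called, with 2 members higher and 2 lower. Calls that were higher made up 62.5% of ESC calls in voom, against 50.7%.

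In embryos, 2983 genes were called, 1730 to 3578 with 1 library left out and 1530 with the spread of the RNAi libraries alone, also chosen after seeing the data. Members called higher (2) were 0 without the filter, 1 with a mean of at least 10, 1 in edgeR, 1 in DESeq2, 0 with the RNAi spread alone and 0 to 2 with 1 library left out. The median log2 fold change of all embryo genes moved by 0.17 with quantile normalisation, 0.12 in edgeR and 0.11 in voom, and the share of calls that were higher was 46.5% with quantile normalisation, against 33.8%. The direction of Sox17 in embryos (0.03) reversed with a pseudocount of 5 (-0.14), in edgeR (-0.87) and in DESeq2 (-0.84), and ranged from -0.53 to 0.93 with 1 library left out; Col4a2 in embryos ranged from -0.026 to 0.86. The cause was not tested. No other member changed direction under any alternative run. No paired analysis was possible in the embryos because the numbers of the control columns differ from those of the control titles and pair no samples. Without the filter, after quantile normalisation and with the replicate block, the ESC call of Hspg2 ended; the block ended no other call named here.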
